A study of Mus musculus with 2 samples.

Results

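The genes of the mitochondrial respiratory chain were compared between an RNA sample from the cerebral cortex of 1 wild-type mouse embryo and one from a Sox11-null littermate. Members were all probe sets of the array that name exactly 1 gene with a symbol starting with Ndufa, Ndufb, Ndufc, Ndufs, Ndufv, Uqcr, Cox4i, Cox5, Cox6, Cox7, Cox8 or Atp5, together with Sdha, Sdhb, Sdhc and Sdhd. This took in 179 of 45101 probe sets and 90 of 18193 genes. The Ndufa prefix also takes in 8 assembly factors of complex I (Ndufaf genes), which were kept apart, so that 82 genes encode subunits: 36 of complex I, 4 of complex II, 8 of complex III, 17 of complex IV and 17 of complex V.

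Both embryos were collected at E17.5, a late embryonic stage, from a mating of Sox11(+/-) parents, on a background labelled C57BL/6 and 129, and no other allele or treatment is named in the labels. Their genotypes were read by PCR of tail clips. Each genotype stands on 1 array of 1 embryo, so all differences are between 2 RNA samples, the spread between embryos is unknown, and no gene has a p-value. In bulk tissue, fewer cells of a type and less RNA per cell cannot be told apart.

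The respiratory chain moves electrons from NADH (complex I) and succinate (complex II) through ubiquinone to complex III, and from there through cytochrome c to complex IV, which reduces oxygen. Complexes I, III and IV pump protons across the inner mitochondrial membrane, and complex V, the ATP synthase, uses the returning protons to make ATP. Most subunits are encoded in the nucleus, and some subunits of complex IV have forms typical of skeletal muscle, heart and brown fat beside a form made in most tissues. Neurons depend on this pathway for ATP, and its subunit genes are among the more abundant transcripts of most tissues.

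Signals are linear intensities as deposited. Differences are log2 of Sox11 null minus wild type after centring to a median difference of 0 over all measured genes, which adds 0.020 to the difference of the printed signals. Each gene is given by its brightest probe set. Genes that reached the median signal of either array (178 for wild type, 177 for the null) were called measured, which 88 of the 90 genes were. The others were Cox7b2, a testis-type subunit gene at 20.6 and 55.7, and Ndufb4 at 78.7 and 69.6.

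All 6 probe sets of Sox11 were lower in the null library, with log2 differences from -2.59 to -1.04. How these probe sets lie relative to the deletion is not known from the sources used. Markers of cortical neurons were present, with 5 of the 5 listed genes that had a single-gene probe set above the median of both arrays. So were markers of skeletal muscle (10 of 10), 5 of 6 brown fat markers apart from Cox8b, and 5 of 6 epidermis markers, in both libraries labelled as cortex. Epidermis markers differed most between the libraries: their summed signal was 37963 (wild type) and 20420 (null), 4 of 6 were 1.5-fold lower and the median log2 difference was -1.04. The others were the keratins Krt14, at 3062 and 2303 (-0.39), and Krt5, which was higher in the null library at 4461 and 4737 (0.11). The part of the epidermis difference in the values of the respiratory chain genes was not tested. As a measure of RNA integrity, the 3' over 5' signal of the control probe sets was 1.78 (wild type) and 1.16 (null) for beta-actin, and 0.922 and 0.816 for Gapdh.

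None of the 88 measured respiratory chain genes differed by 1.5-fold between the libraries. Over all 12390 measured genes, 3.24% were 1.5-fold lower and 3.07% were 1.5-fold higher. The brightest 10% of measured genes held 71 of the 88. Of the 1168 other genes in that group, 24 were 1.5-fold lower and 3 were 1.5-fold higher. Of the 88 respiratory chain genes, 82 lay within 0.3 of 0 on the log2 scale, 4 were above and 2 were below. These 6 were Ndufs4, Ndufs5, Sdhc and Ndufaf6 on the higher side and Cox7c and Ndufc2 on the lower side. Differences of most subunits were small and negative: 60 of the 80 measured subunits (75%) were below 0, against 50% of all measured genes, which the centring fixes. The median over the 80 subunits was -0.12, which is 92.3% of the wild-type signal.

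**Figure D1:**
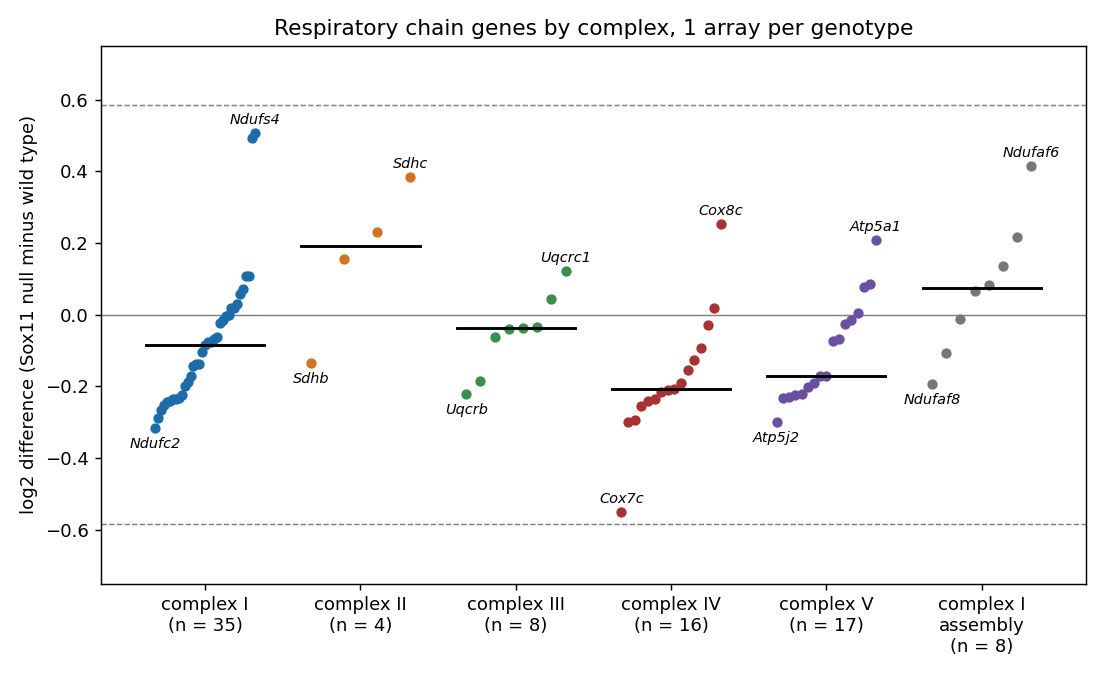
Log2 difference (Sox11 null minus wild type, vertical axis) of each measured respiratory chain gene, by complex, with 1 point per gene, black bars at the medians and dashed lines at 1.5-fold either way. All 88 points lie between the dashed lines, and the medians run from -0.21 in complex IV to 0.19 in complex II.

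The subunits were bright, and bright genes as a whole had negative differences in these libraries. Of the 80 measured subunits, 71 belonged to the brightest 10% of measured genes. The other 1168 genes of that group had a median difference of -0.063 and 63.4% of them were below 0. By groups of 10% of the measured genes in order of signal, the median difference was highest in the fifth from the bottom (0.044) and lowest in the brightest (-0.066). The dimmest group was also below 0 (-0.057). With a loess trend of the difference on level removed, the median over the subunits was -0.033 and 50 of the 80 were below 0. With quantile normalization it was -0.042, also with 50 below 0. Genes of the cytosolic ribosome, a list added after values were seen that has 38 of its genes in the brightest 10%, had 43 of 49 measured members below 0 and a median of -0.16, or -0.042 with the trend removed. Its member Rpl39l was 1.5-fold lower (885 and 496, -0.82). The part of signal level in the negative differences was not tested beyond these values.

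**Figure D2:**
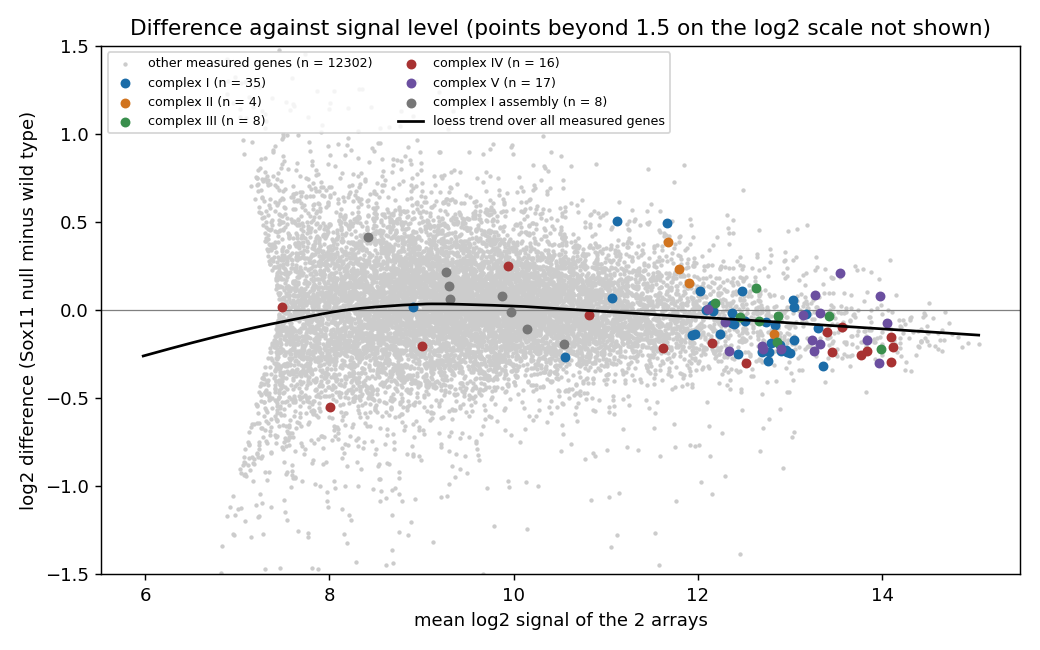
Log2 difference (Sox11 null minus wild type, vertical axis) against the mean log2 signal of both arrays (horizontal axis) for all measured genes, with respiratory chain genes coloured by complex and the loess trend in black. The trend lies below 0 at the right, where 71 of the 80 subunits are found.

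Complex I, the NADH dehydrogenase, had a median of -0.083 over 35 measured genes, with 26 below 0. Its nucleus-encoded catalytic core, which holds the flavin and the iron-sulphur clusters, was split evenly, with 3 of 6 measured genes below 0 and a median of 0.014. This division of the complex was made after the values were seen. Ndufs1, the largest iron-sulphur subunit, was at 2102 on the wild-type array and 2177 on the null array (0.070). Ndufv1, which binds NADH and the flavin, was at 4631 and 4558 (-0.0029). Ndufs7, next to the site where ubiquinone is reduced, was at 4029 and 4286 (0.11). At the lower end of the core lay Ndufs8, an iron-sulphur protein. Its brightest probe set gave 6075 and 5033 (-0.25), and its 6 measured probe sets, all negative, ran from -0.69 to -0.0092.

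The accessory subunits of complex I, which surround the core and serve its assembly and stability, had a median of -0.10 over 29 measured genes, with 23 below 0. The most negative was Ndufc2, a small membrane-arm subunit, at 11820 and 9357 (-0.32), although its next brightest probe set gave 0.084. Next came Ndufa12, a subunit of the arm that reaches into the matrix, at 7746 and 6256 (-0.29), with all 3 measured probe sets negative. Ndufa1, among the brightest of the complex, was at 10541 and 9676 (-0.10).

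Ndufs4 and Ndufs5 stood above all other subunits of complex I. Ndufs4, an accessory subunit whose loss in mice is used as a model of Leigh syndrome, was at 1879 on the wild-type array and 2635 on the null array (0.51, 142% of the wild-type signal). Its probe sets disagree: the next brightest was at 1161 and 828 (-0.47) and the third measured one at 0.21, so their mean was 0.084. Ndufs5, a subunit on the side of the intermembrane space, was at 2753 and 3821 (0.49). That is its only single-gene probe set, and another one that also names the pseudogene Ndufs5-ps was at 3208 and 3560 (0.17).

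The 8 assembly factors of complex I, which build the complex and are not part of the finished enzyme, had a median of 0.074 with 3 below 0. None was among the brightest 10% of genes. Ndufaf6 was the highest, at 298 on the wild-type array and 391 on the null array (0.42), followed by Ndufaf5 at 574 and 659 (0.22). Ndufaf8, the brightest, had the lowest difference, at 1609 and 1388 (-0.19, and -0.29 with its other probe set). Ndufaf3 was next lowest, at 1187 and 1087 (-0.11).

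Complex II, the succinate dehydrogenase shared with the tricarboxylic acid cycle, was the only complex with a positive median, 0.19 over its 4 genes, although complex III was also above 0 in the quantile and loess settings. The membrane anchor Sdhc was at 2889 on the wild-type array and 3723 on the null array (0.39, but -0.26 with its other probe set). The flavoprotein Sdha was at 3299 and 3818 (0.23, and -0.036 with its other measured probe set). The second anchor Sdhd was at 3653 and 4010 (0.15, and -0.086 with its other probe set). For all 3 of these genes the brightest probe set was positive and the other measured one negative. The iron-sulphur subunit Sdhb, with a single probe set, was at 7653 and 6876 (-0.13). With the measured probe sets of each gene averaged, the median of the complex was 0.049.

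Complex III, which passes electrons from ubiquinol to cytochrome c, had a median of -0.037 over 8 genes with 6 below 0, but 0.021 after quantile normalization and 0.025 after removal of the loess trend. The lowest was Uqcrb, a small subunit and the brightest of the complex, at 17669 and 14939 (-0.22). Uqcrq followed at 7991 and 6938 (-0.18). The core protein Uqcrc1 was the highest, at 6094 and 6547 (0.12). Uqcr10 was at 4619 and 4693 (0.043, but -0.47 with its other measured probe set). Uqcrh, the hinge protein that contacts cytochrome c1, was at 11199 and 10773 (-0.036, and -0.30 with its other probe set). The Rieske iron-sulphur protein Uqcrfs1 was at 5754 and 5526 (-0.039).

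Complex IV, the cytochrome c oxidase, had the lowest median, -0.21 over 16 measured genes, with 14 below 0. Leaving out the muscle and testis forms and Cox4i2, all 10 remaining measured genes were below 0, from -0.55 to -0.094 with a median of -0.24. This division was not among the planned comparisons. The 2 measured genes above 0, Cox8c (0.25) and Cox4i2 (0.019), are among those left out, so the uniform sign follows from the choice. Ndufa4 (0.057), counted with complex I by its symbol, is not included either. The lowest of the complex was Cox7c, at 312 on the wild-type array and 210 on the null array (-0.55). The level of that probe set is close to the array medians, and the other single-gene probe set of Cox7c, at 110 on both arrays, did not count as measured (0.023). Among bright members, Cox7a2l, which joins complexes III and IV into supercomplexes, was at 6548 and 5247 (-0.30), with all 3 probe sets negative.

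Cox6c, among the brightest of the complex, was at 19206 and 16380 (-0.21, and -0.25 with its other probe set). Cox5a, a matrix-facing subunit, was at 15390 and 12734 (-0.25), with all 3 probe sets negative. Cox4i1, which takes part in the regulation of the enzyme by ATP, was at 12596 and 11641 (-0.094). With the loess trend removed the median of complex IV was -0.14, and it was the lowest of the complexes there too.

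The muscle-type forms and their partners in most tissues were compared within each gene across the arrays, because signals of different probe sets are not on a common scale. The promoters of 5 of these genes are shown because the forms differ in where they are made. Sequences are from RefSeq (GRCm38.p6), the 250 bases before the start of the gene on its own strand, with capitals at matches to the motifs named below. The windows are chr5:115348959-115349208, minus strand, for Cox6a1; chr7:30183921-30184170, plus strand, for Cox7a1; chr9:79759854-79760103, minus strand, for Cox7a2; chr7:140900447-140900696, minus strand, for Cox8b; and chr19:7217617-7217866, minus strand, for Cox8a.
Cox6a1: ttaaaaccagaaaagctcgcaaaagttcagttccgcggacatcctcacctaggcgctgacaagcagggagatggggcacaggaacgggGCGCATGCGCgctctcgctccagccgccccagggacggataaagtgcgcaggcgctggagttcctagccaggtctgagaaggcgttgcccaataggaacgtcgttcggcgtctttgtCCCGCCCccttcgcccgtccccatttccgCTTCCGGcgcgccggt
Cox7a1: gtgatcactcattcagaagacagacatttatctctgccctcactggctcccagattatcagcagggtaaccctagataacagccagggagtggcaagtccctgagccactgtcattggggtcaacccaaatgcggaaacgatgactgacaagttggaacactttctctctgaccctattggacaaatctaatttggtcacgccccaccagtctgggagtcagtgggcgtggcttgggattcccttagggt
Cox7a2: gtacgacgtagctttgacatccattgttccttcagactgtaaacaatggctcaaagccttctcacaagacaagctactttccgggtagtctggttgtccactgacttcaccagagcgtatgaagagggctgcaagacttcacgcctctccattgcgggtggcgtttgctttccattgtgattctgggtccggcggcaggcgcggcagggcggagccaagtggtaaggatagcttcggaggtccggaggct
Cox8b: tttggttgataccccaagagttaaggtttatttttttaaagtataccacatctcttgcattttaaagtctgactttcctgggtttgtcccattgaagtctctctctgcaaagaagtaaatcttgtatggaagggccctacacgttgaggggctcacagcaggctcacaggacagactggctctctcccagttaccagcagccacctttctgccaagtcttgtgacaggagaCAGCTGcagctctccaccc
Cox8a: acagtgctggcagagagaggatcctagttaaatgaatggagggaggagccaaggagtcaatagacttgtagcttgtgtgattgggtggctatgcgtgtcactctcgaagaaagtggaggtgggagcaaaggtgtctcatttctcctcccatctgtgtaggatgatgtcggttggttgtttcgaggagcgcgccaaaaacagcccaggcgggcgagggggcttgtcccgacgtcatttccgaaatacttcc

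Motifs were searched on both strands. They were the core GCATGCGC preceded by GC for NRF1, a factor that drives many nuclear genes of mitochondria, CCGGAAG for ETS factors such as GABP, GGGCGGG for SP1, CAGCTG for E-box factors such as MyoD, and CTAAAAATA for MEF2. The promoter of Cox6a1 held matches of NRF1, ETS and SP1, and that of Cox8b 1 E-box match in the printed part. The promoters of Cox7a1 and Cox7a2 held none of them, and that of Cox8a held an ETS match that ends beyond the printed bases. In the whole windows, which run 50 bases further, 7.59% of the 79 windows of the 74 matched member genes held the NRF1 motif, against 0.971% of all 32851 windows. The shares were 24.1% and 8.86% for ETS, 36.7% and 25.6% for SP1, 7.59% and 16.3% for the E-box, and 0% and 0.517% for MEF2. The median share of G and C was 59% in member windows and 52.7% in all. A match describes the letters and is no evidence of binding.

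Cox6a2, the muscle and heart form, was at 3418 on the wild-type array and 2901 on the null array (-0.22). A dimmer probe set of the gene gave 815 and 412 (-0.96), and the mean of both was -0.59. Its partner Cox6a1 was at 18570 and 16470 (-0.15, and -0.24 with its other probe set). The difference of Cox6a2 minus that of Cox6a1 was therefore -0.063 with the brightest probe sets and -0.39 with probe sets averaged.

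Cox7a1, the form of muscle, heart and brown fat, was at 1840 and 1779 (-0.029). Its partner Cox7a2 was at 19534 and 15716 (-0.29, and -0.14 with its other probe set), which puts Cox7a1 0.26 above it in difference. That gap was 0.12 with quantile normalization, 0.16 with the loess trend removed and 0.19 with probe sets averaged. Cox8b, typical of muscle, heart and brown fat, was at 4880 and 4220 (-0.19). Its partner Cox8a was at 11374 and 10276 (-0.13, and -0.20 with its other measured probe set). Cox8b thus lay 0.063 lower in difference than Cox8a, and 0.011 higher without the probe sets of the _s_at and _x_at types. Between probe sets of the same member gene the pooled SD of the difference was 0.20, which gives 0.28 for a difference between 2 genes, and none of the 3 pairs exceeded it with the brightest probe sets.

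**Figure D3:**
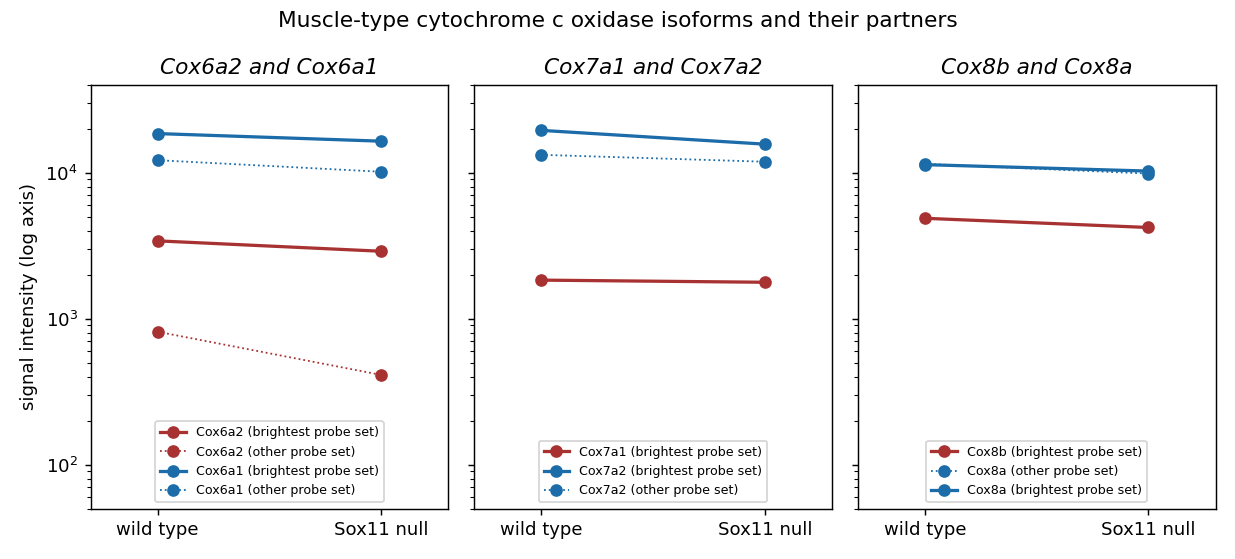
Signal intensity (vertical log axis) of the measured probe sets of the muscle-type genes (red) and their partners (blue) on the wild-type and the Sox11-null array, with solid lines for the brightest probe set of a gene and dotted lines for the others. All lines run downward to the null array, and the steepest is the dimmer probe set of Cox6a2 (815 and 412). Heights of different probe sets are not comparable.

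Markers of tissues that make the muscle-type forms had positive and negative differences. With their brightest probe sets, Cox6a2 was at -0.22, Cox7a1 at -0.029 and Cox8b at -0.19. The summed signal of 10 skeletal muscle markers was 136370 on the wild-type array and 137690 on the null array, with a median difference of 0.10 and 3 below 0. Among them, the muscle actin Acta1 had a difference of 0.041 and the fast troponin Tnnc2 one of -0.014. Of 9 slow muscle and heart markers, all 6 measured ones were above 0 with a median of 0.38 (summed signal 22631 and 27942), while the heart markers Myh6 and Tnni3 were at the floor on both arrays. The slow myosin light chain Myl2 was 1.5-fold higher, at 781 and 1222 (0.67). The summed signal of the brown fat markers other than Cox8b was 28034 and 27595, and Ucp1, the uncoupling protein that defines brown fat, was at 4461 and 5964 (0.44). The fatty acid carrier Fabp4, the brightest of that list, was at 15827 and 14417 (-0.11), the lipid droplet protein Cidea at 4799 and 4186 (-0.18) and the regulator Prdm16 at 423 and 322 (-0.38, or 0.21 with all probe sets averaged), so the brown fat markers lay on both sides of 0. The brown fat list had a median of -0.11 over 7 measured genes, Cox8b included, and 0.078 with measured probe sets averaged. Cortical neuron markers had a median of -0.13 over 5 genes (summed signal 22027 and 20866), with Stmn2 at -0.16 and Tubb3 at 0.24. Radial glia markers had a median of 0.19 over 5 genes (summed signal 17284 and 19219), and the Notch effector Hes5 was 1.5-fold lower among them (640 and 358, -0.82, but -0.24 without the _s_at and _x_at types). The largest differences of the epidermis list were those of the keratin Krt10, at 10189 and 3229 (-1.64), and the cornified envelope protein Ivl, at 295 and 105 (-1.47, or -0.72 where each array's median is the floor). Which cells the signals of Cox6a2, Cox7a1 and Cox8b came from was not tested.

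The other isoforms of complex I and IV were within 1.5-fold too. Cox4i2, the form induced by low oxygen, lay at the array median with 179 on both arrays (0.019). The testis form Cox6b2 was at 557 and 476 (-0.21), and its partner Cox6b1 at 12279 and 10253 (-0.24). The testis form Cox8c was at 903 and 1061 (0.25, but -0.12 with its other probe set). Ndufa4l2, which low oxygen induces, was at 1659 and 1360 (-0.27), and its relative Ndufa4, a protein now assigned to complex IV, was at 8263 and 8477 (0.057). The difference of Ndufa4l2 minus that of Ndufa4 was -0.32. Cox8c minus Cox8a was 0.38, and 0.056 with all probe sets averaged.

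Complex V, the ATP synthase, had a median of -0.17 over 17 genes with 13 below 0. Its catalytic head, a division made after values were seen, lay on both sides of 0. The alpha subunit gene Atp5a1 was at 11196 and 12765 (0.21), but its 3 probe sets ran from -0.41 to 0.21. The catalytic beta subunit gene Atp5b was at 15832 and 16483 (0.078). The gamma subunit gene Atp5c1, the turning shaft, was at 9638 and 10096 (0.087, and 0.19 with its other probe set). The small delta and epsilon subunit genes of the head were negative. Atp5d was at 10673 and 8976 (-0.23, and -0.012 with its other probe set), and Atp5e at 7184 and 6156 (-0.20).

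The 3 genes of subunit c, which forms the rotating ring and has the same mature protein from each gene, were near 0. Atp5g1 was at 5163 and 4862 (-0.067), Atp5g2 at 4423 and 4381 (0.0060) and Atp5g3 at 17583 and 16470 (-0.075). The other 9 genes of the complex, of the stalk and the membrane part, were all below 0 with a median of -0.19. The 4 genes of the complex above 0 are all in the head or among the genes of subunit c, so the uniform sign follows from the choice. Atp5pb, among the 9, was at -0.17, but at 0.091 with its other probe set. Atp5j2, subunit f, was the lowest at 17897 and 14352 (-0.30), with its 3 probe sets from -0.47 to -0.21. Atp5md, a small subunit that helps pair the enzyme into dimers, was at 5627 and 4725 (-0.23). The median of complex V was -0.071 with the loess trend removed and -0.083 without the _s_at and _x_at types.

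Different probe sets of a gene gave a measure of technical spread. Of the measured members, 46 had 2 or more measured probe sets (114 probe sets) and 42 had 1. In 26 of the 46 genes all probe sets were below 0, in 4 all were above 0, and in 16 they lay on both sides. Of the 156 measured probe sets, 2 were 1.5-fold lower and none was 1.5-fold higher. These 2 were the dimmer probe set of Cox6a2 (-0.96) and one of Ndufs8 at 501 and 307 (-0.69). The same share over all measured probe sets was not computed, so whether 2 of 156 is few or many is not known. The difference also varied with the type of probe set. The 28 measured member probe sets of the _x_at type, which can cross-hybridise with other transcripts, had a median of -0.20, and the 70 of the plain _at type one of -0.048. Over all single-gene probe sets with a mean log2 signal at or above that of 4000, the medians were -0.15 for the _x_at type (261 probe sets) and -0.025 for the _at type (459). The part of probe set type in the members' differences was not tested further.

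**Figure D4:**
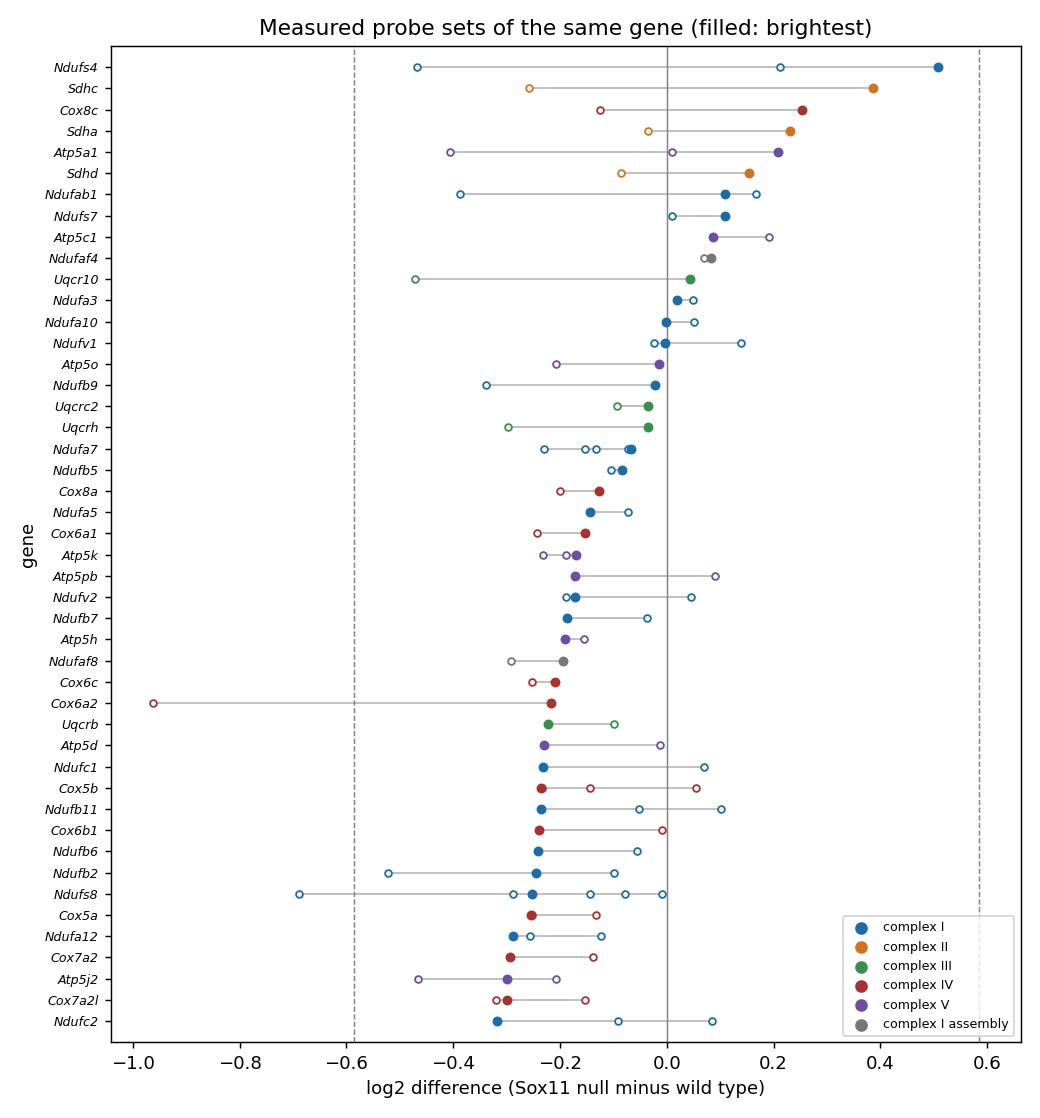
Log2 difference (Sox11 null minus wild type, horizontal axis) of every measured probe set of the 46 members with several (1 gene per row, coloured by complex), with filled points for the brightest probe set and dashed lines at 1.5-fold. Ndufs4, Sdhc and Atp5a1 spread over both sides of 0, and the dimmer probe set of Cox6a2 lies at -0.96.

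Other genes of mitochondrial energy metabolism were also mostly within 1.5-fold. That holds for most measured genes, of which 3.24% were 1.5-fold lower and 3.07% were 1.5-fold higher. Of 13 measured genes of the tricarboxylic acid cycle none was beyond 1.5-fold, 9 were above 0 and the median was 0.16, with Mdh2, malate dehydrogenase, at 11227 and 12598 (0.19) and Idh3a, a subunit of isocitrate dehydrogenase, at 5995 and 6620 (0.16). With all probe sets averaged that median was 0.043. Of 9 measured genes of the chain, nucleotide exchange and related proteins outside the prefixes none was beyond 1.5-fold, and the median was 0.0060. They include Cyc1, cytochrome c1 of complex III, which the prefixes leave out of the 8 genes of that complex, at 8846 and 8697 (-0.0046). Also among the 9, cytochrome c (Cycs) was at 15550 and 14656 (-0.066) and the ATP/ADP carrier Slc25a4 at 16186 and 16311 (0.031). None of 12 factors of mitochondrial biogenesis was beyond 1.5-fold (median 0.023), with Tfam, which packs and transcribes mitochondrial DNA, at 1621 and 1415 (-0.18) and Gabpa at 1148 and 1271 (0.17). The largest differences of that list were those of the nuclear receptor Esrra, at 560 and 374 (-0.57), and of Nrf1, at 565 and 418 (-0.41). Esrra lay beyond 1.5-fold with no centring (-0.59), after quantile normalization (-0.62) and after removal of the loess trend (-0.60), and at -0.31 with its probe sets averaged. Nrf1 turned to 0.31 with all its probe sets averaged.

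The 10 assembly genes of complex IV had a median of -0.050 (0.057 with all probe sets averaged) and none beyond 1.5-fold. The copper chaperone Cox17 was at 2857 and 3779 (0.42, but -0.0075 without the _s_at and _x_at types), and Cox19 was at 1825 and 1734 (-0.054). Of 76 measured genes of the mitochondrial ribosome 1 was 1.5-fold higher and none lower, with a median of -0.049 and 47 below 0. That gene was Mrpl38, at 373 and 685 (0.90, and 0.29 with all probe sets averaged). The 6 measured members with the NRF1 motif in their promoter had a median difference of 0.044, between -0.17 and 0.22, and the 66 other matched measured members one of -0.12. With the core GCATGCGC alone, 11 members had a median of -0.027 and the 61 others one of -0.14, so the sign of the first median depends on the form of the motif searched. The 19 with the ETS motif had a median of -0.17 and the 53 without it one of -0.075. The 26 with the SP1 motif had a median of -0.15 and the 46 without it one of -0.075. For the E-box the medians were nearly equal, -0.100 over 6 members with it and -0.105 over 66 without.

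**Figure D5:**
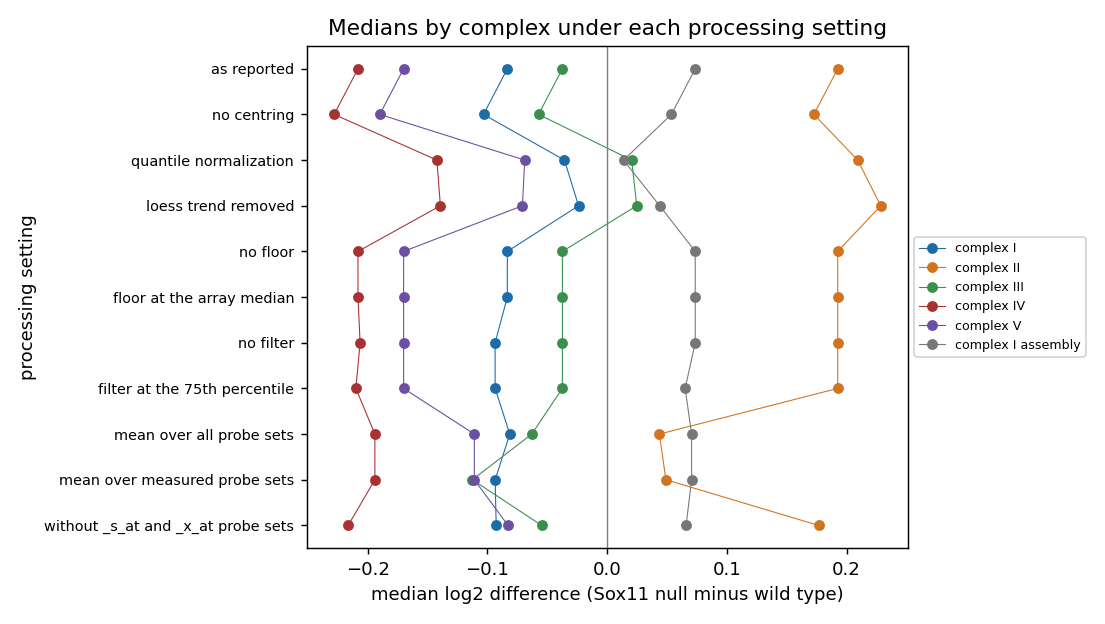
Median log2 difference (Sox11 null minus wild type, horizontal axis) of each complex under the reported processing and each alternative (vertical axis), with 1 point per complex and setting. Complex IV has the lowest median and complex II a positive one in all settings shown, and complex III crosses 0 in the quantile and loess settings.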

How the data were processed

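Total RNA of 2 samples labelled as embryonic cortex, 1 per genotype, was hybridised as biotinylated cRNA to 1 Affymetrix mouse array each, per the labels' protocols. The deposited table holds 1 linear signal intensity per probe set. Affymetrix Expression Console is named in the submitters' processing notes, and its summary algorithm, version and filters are not given in the sources used. Both arrays had the same mean intensity after trimming 2% at each end (500.002), as global scaling gives. Scaling by a single factor leaves differences that depend on signal level in place.

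The 64 control probe sets were left out. Genes were named by a platform annotation, with symbols updated by gene number through a RefSeq table of GRCm38.p6. All 90 member symbols stayed the same, and promoters of 74 of them matched. Of the non-control probe sets, 34945 name 1 gene, 932 several and 9160 none. The brightest probe set by mean log2 signal stood for a gene. After centring, the 25th percentile of each array (52.9 and 52.5) was set as a floor. Differences were counted at 1.5-fold, without a test, and the number of arrays limits the precision. The comparison was tested on simulated data with planted differences larger than that of any respiratory chain gene reported here. That test does not bear on differences as small as theirs.

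Members and lists were chosen with earlier results of these data known. Named genes were, per complex, the 2 highest, 2 lowest and 2 brightest, all isoforms, and up to 2 per other list in each direction beyond 1.5-fold or the 2 brightest. Uqcrfs1, Cox5a, Cox4i1, Esrra, Nrf1, Prdm16, Cidea and the genes named for the core, the head and the probe set spread were chosen after their values were seen. Alternatives were no centring, quantile normalization, loess (span 0.4), no floor or one at the median, no filter or one at the 75th percentile, averaged probe sets, and leaving out the _s_at and _x_at types. Python 3.11.15, pandas 2.3.3 and statsmodels 0.14.6 were used.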

Additional observations from a re-analysis of the deposited data

How the results depend on the processing

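No paired analysis was possible because each genotype has 1 array, and for the same reason no array could be left out. A median counted as moved when it changed by more than its standard error over the members, and a difference between 2 genes when it changed by more than 0.28. The first limit narrows with the number of genes, which all come from the same 2 RNA samples. It is a rule for reporting and measures no spread between embryos. The number of respiratory chain genes 1.5-fold lower was 1 with quantile normalization (Cox7c, -0.59), and 1 with all or with the measured probe sets averaged (Cox6a2, -0.59 in both). None was 1.5-fold higher in any setting run. With quantile normalization the medians were -0.042 for all subunits, -0.036 for complex I, 0.021 for complex III, -0.14 for complex IV and -0.069 for complex V. With the loess trend removed they were -0.033, -0.024, 0.025, -0.14 and -0.071 in the same order. With all probe sets averaged, complex II was at 0.044, complex V at -0.11 and Cox6a2 minus Cox6a1 at -0.39. With only measured probe sets averaged, an alternative chosen after seeing the data, complex II was at 0.049, complex III at -0.11, complex V at -0.11 and Cox6a2 minus Cox6a1 at -0.39. Without the _s_at and _x_at types complex V was at -0.083 and Cox7c at 0.0071. The medians of complexes I, IV and V stayed below 0 and those of complex II and the assembly factors above 0 in all settings run. Over all settings, 50 to 63 subunits were below 0. Over all measured genes, 139 to 806 were 1.5-fold lower, depending on the filter, and 401 as reported. The NRF1 core GCATGCGC without the GC before it was found in 11 member windows in place of 6. Of 679 values of named genes in the alternatives, 643 stayed within the pooled SD of 0.20 between probe sets, 36 moved by more and none turned from beyond 1.5-fold one way to the other sign. The last count could take in no respiratory chain gene, because none was beyond 1.5-fold as reported. Smaller differences did change sign, as in Ndufc2 (-0.34 to 0.068 over the alternatives) and Atp5a1 (-0.062 to 0.30). Much of the agreement in the 643 values was also fixed in advance. The floor and filter settings leave the value of nearly every measured gene unchanged, and no centring shifts values by 0.020. Cox7b2 was at 1.45 with no floor, at signals below both array medians.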

Other observations

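The array holds 10 probe sets that name a gene of the same prefixes together with another gene, and they are not among the members. The 2 that name Ndufb4 with its copies Ndufb4b and Ndufb4c were bright, at 5394 on the wild-type array and 5098 on the null array (log2 difference -0.062) and at 5356 and 4616 (-0.19). The brighter one of Ndufa11 with Ndufa11b was at 5346 and 5022 (-0.070). Ndufs6 with Ndufs6b was at 5164 and 4419 (-0.20), and Ndufab1 with its pseudogene Ndufab1-ps at 7200 and 5991 (-0.25).

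Of the chain genes in mitochondrial DNA, the table names ND5, a proton-pumping membrane subunit of complex I. Its probe set was at 11971 on the wild-type array and 12629 on the null array (0.097).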
